A study of Mus musculus with 6 samples.

Results

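Mice with 1 C-terminally truncated copy of Shank3 were compared with wild-type mice, both given vehicle, by RNA sequencing of bulk prefrontal cortex. The libraries were chosen by title: 2 titled Shank3 vehicle and 2 titled wild-type vehicle, 4 of the 6 libraries in the series. The wild-type animals are labelled C57BL/6 x C3H. The genotype of the mutants is labelled Shank3 +/∆C, with no strain named. All animals were 6 to 8 weeks old. The remaining 2 libraries, from Shank3 +/∆C mice given the LSD1 inhibitor GSK-LSD1, entered the model only to estimate the spread, and their levels appear beside a few genes. The labels call the samples of a group biological duplicates, and the sex of the animals, the nature of the vehicle and any shared litters are not stated. Every p-value below therefore rests on 2 libraries per group.

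Shank3 is a scaffold of the postsynaptic density, the protein layer under the membrane of excitatory synapses. Through SAPAP and Homer proteins it ties NMDA-type and metabotropic glutamate receptors to each other and to the actin cytoskeleton. Loss of 1 copy of the human gene causes Phelan-McDermid syndrome and is a known cause of autism. In the mouse, C-terminal truncations remove the part that binds Homer and cortactin and the domain with which Shank proteins assemble into sheets.

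The 4 libraries held 15194848 to 28646960 counted reads, and 18705 genes passed the filter on low counts. Levels are CPM, the counts of a gene scaled to a common library total with TMM factors, always in the order of replicate 1 and replicate 2. Differences are log2 fold changes of Shank3 vehicle over wild type, with an approximate standard error after the ± sign, and adjusted p-values come from edgeR's quasi-likelihood test over all 18705 genes. A gene "rose" or "fell" where its adjusted p was under 0.05. In bulk tissue, fewer cells of a type and less RNA per cell cannot be told apart.

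Shank3 itself, on chromosome 15 from 89499623 to 89560261 (GRCm38, plus strand), stood at 153 and 159.8 CPM in wild type and 146 and 174 CPM in Shank3 vehicle. The groups overlapped, and the difference of 0.03 ± 0.11 did not pass (adjusted p = 0.937). A count over the whole gene does not separate the truncated part, so this level does not check the genotype. Kdm1a, which encodes the demethylase LSD1, also overlapped between the groups, at 93.1 and 102 CPM in wild type and 97.2 and 86.3 CPM in Shank3 vehicle.

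Receptor, channel, synaptic adhesion and guidance genes were among those lower in the mutants, and genes of astrocytes, the oligodendrocyte lineage and vessels among those higher. Of 18705 genes, 238 passed (1.27%): 186 fell (0.994%) and 52 rose (0.278%). The median change was -0.55 among the genes that fell and 0.70 among those that rose, against 0.02 over all tested genes. Over all 18705 genes 8919 values were negative and 9786 positive. More than 2-fold changes were found for 3 of the 186 and 12 of the 52. For all 238 genes both mutant libraries lay on the same side of both wild-type libraries, which was the case for 23.1% of all tested genes upward and 23.1% downward. The genes that fell were abundant and long: their median level was 117 CPM and their median exonic length 7.79 kb, against 12.3 CPM and 3.79 kb over all tested genes. The genes that rose had a median of 25.2 CPM and 4.45 kb. Median GC content was 52.81% in the genes that fell, 48.64% in those that rose and 49.15% over all tested genes. With offsets for length and GC content in the model, 84 genes fell and 52 rose, of which 79 and 39 were among those above.

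**Figure D1:**
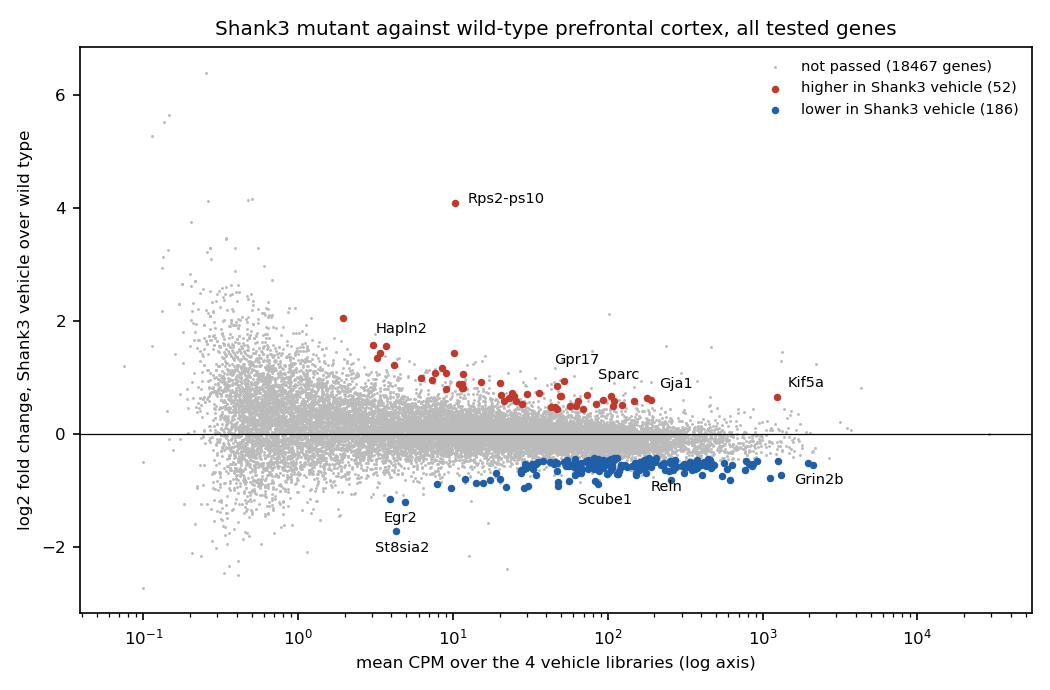
Each point is 1 of the 18705 tested genes, with its mean CPM over the 4 vehicle libraries on a log axis and its log2 fold change of Shank3 vehicle over wild type on the vertical axis; red points rose and blue points fell. The 186 genes that fell lie mostly to the right, at a median of 117 CPM, while the 52 that rose spread from 1.95 to 1238 CPM.

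The numbers above changed when any 1 library was left out. Without wild-type library 1, 4 genes fell and 2 rose, and without wild-type library 2 the numbers were 298 and 118. Without Shank3 vehicle library 1, 3 fell and 5 rose, and without library 2, 15 fell and 5 rose. Leaving out GSK-LSD1 library 1 gave 401 lower and 225 higher genes, and leaving out library 2 gave 421 and 235. The wild-type libraries differed from each other along the same genes: over the 186 genes that fell, wild type 2 lay below wild type 1 by a median of -0.22 and in 172 of them, so wild type 1 was the farther from the mutants. The mutant libraries differed by a median of only -0.03 over these genes. Over the same genes, chosen for their difference between groups, the 4 pairings of a mutant with a wild-type library gave medians of -0.66, -0.42, -0.70 and -0.47. Scaling also moved the split: with upper quartile scaling 96 fell and 45 rose, and with scaling by library size alone 20 fell and 15 rose.

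The lowest adjusted p among the genes that fell belonged to Scube1, a secreted and cell-surface EGF-domain protein (chromosome 15 from 83604999 to 83725021, minus strand). It stood at 112 and 101 CPM in wild type and at 59.1 and 59.7 CPM in Shank3 vehicle (-0.84 ± 0.10, adjusted p = 0.00255). Both mutant libraries lay close together and well under the wild-type pair. Scube1 is 1 of only 2 genes that passed under every alternative tried, the other being Rps2-ps10, described with the copies of Rps2 below.

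Celsr2, an atypical cadherin of planar cell polarity, went from 886 and 689 CPM to 469.8 and 428 CPM (-0.81 ± 0.12). The delta protocadherin Pcdh19, mutated in an X-linked epilepsy, went from 206 and 174 CPM to 113 and 116 CPM (-0.73 ± 0.11). Pcdh1, a related protocadherin, went from 435 and 332 to 241 and 233 CPM. In each of these genes wild type 1 was the highest library and the mutant pair lay below both wild-type values. Fras1, a basement membrane protein, stood at 131 and 113 CPM against 75.9 and 73.8 CPM. Pxdn, the peroxidase that crosslinks collagen IV, stood at 34.3 and 41.1 CPM against 19.7 and 19.5 CPM (-0.95 ± 0.15). Tenm4, a teneurin that bridges neighbouring cells, stood at 353 and 289.6 CPM against 208 and 206 CPM. Unlike the cadherins, Pxdn was highest in wild type 2.

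St8sia2, which builds polysialic acid on the adhesion molecule NCAM, had the largest fall of the 20 leading genes, from 7.73 and 5.38 CPM to 1.98 and 1.95 CPM (-1.72 ± 0.29, adjusted p = 0.0176). Galnt17, of the family that starts O-linked glycans, went from 112 and 103 CPM to 70.4 and 65.6 CPM. The remaining leaders include the bicarbonate transporter Slc4a8 (209 and 166 against 116 and 116 CPM) and Kctd16, an auxiliary subunit of GABA-B receptors (60.0 and 55.8 against 33.6 and 39.5 CPM). Prag1, a pseudokinase, stood at 82.7 and 61.2 CPM against 38.3 and 42.5 CPM. Wfs1, an endoplasmic reticulum protein lost in Wolfram syndrome, stood at 131 and 118 CPM against 76.2 and 77.5 CPM. In the GSK-LSD1 libraries Wfs1 stood at 119 and 112 CPM, and St8sia2 at 2.50 and 3.41 CPM.

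**Figure D2:**
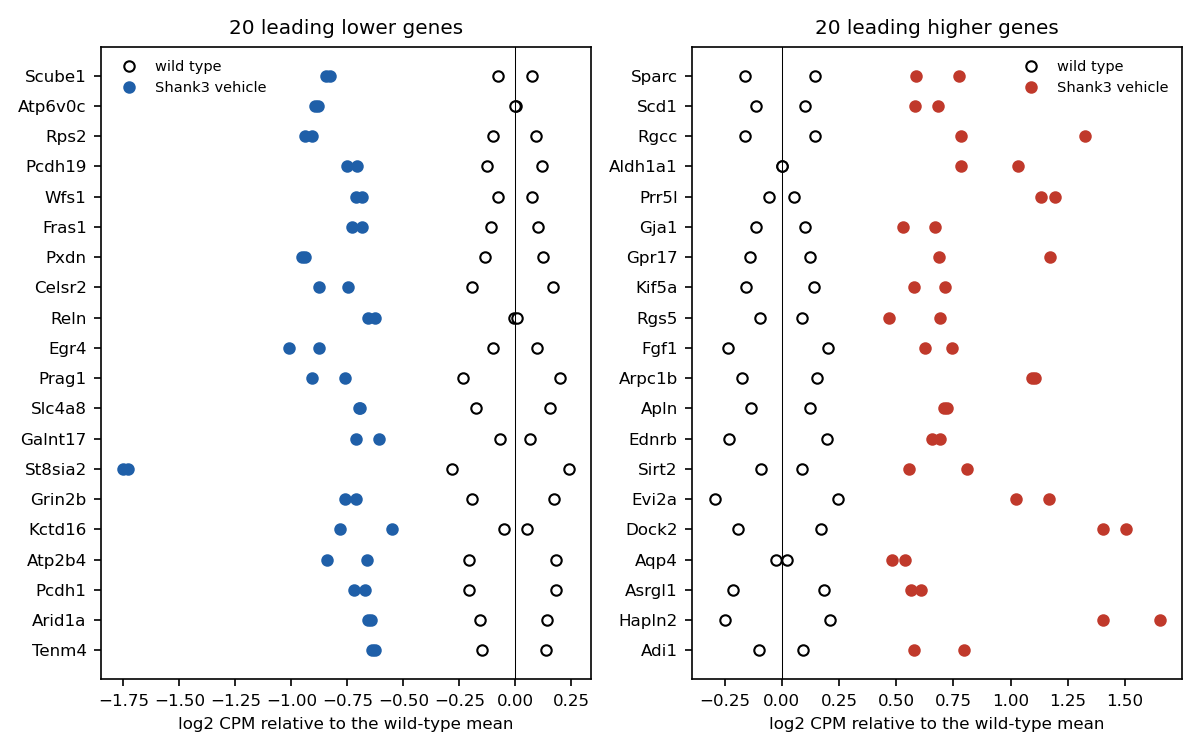
For the 20 leading genes in each direction, ranked by adjusted p, each circle is 1 library, plotted as its log2 CPM minus the mean of the 2 wild-type libraries; open circles are wild type and filled circles Shank3 vehicle. The genes were chosen for having no overlap between the groups; among those that fell, St8sia2 lies farthest to the left.

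Some genes fell in each of 13 lists of synapse and ion channel genes, and none of the 284 tested members rose by edgeR's test (before adjustment 9 were higher at p under 0.05, and limma-voom passed 0 and DESeq2 2). Of the 284, 39 fell (13.7%, against 0.994% of all tested genes), the median change was -0.21, and 226 were negative. Both mutant libraries lay below both wild-type libraries for 178 of the 284 and above them for 22, against 23.1% of all tested genes each way. The count moved with the model and with single libraries. With length and GC offsets 10 fell, with the oligodendrocyte level in the model 7 fell and 1 rose, and with scaling by library size alone 1 fell. The oligodendrocyte level was itself higher in both mutant libraries, as given below, so that term takes up part of the difference between groups. Without wild-type library 1, or without either Shank3 vehicle library, 0 fell by edgeR's test. Without GSK-LSD1 library 1, 56 fell, and without library 2, 58. The median of the 284 lay between -0.23 and -0.14 under all alternatives. Single libraries also stood apart by length and GC content, by the correlation of a library's deviation from the mean of the 4 across 13730 genes. With GC content it was 0.254 and -0.0721 in wild type and -0.149 and -0.0909 in Shank3 vehicle, so wild type 1 stood apart. With log2 exonic length it was 0.104 and 0.0726 in wild type and -0.21 and 0.0194 in Shank3 vehicle, so the first Shank3 vehicle library stood apart.

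Among the excitatory receptors, NMDA receptor subunits had the lowest median of any functional list, -0.45 over 6 tested genes. Grin2b, the subunit that prolongs the NMDA current in young synapses, fell from 1855 and 1438 CPM to 1004 and 973 CPM (-0.74 ± 0.13, adjusted p = 0.0178). Grin3a, which lowers the calcium flow of the receptor, fell from 121 and 107 CPM to 77.3 and 86.7 CPM. The obligatory subunit Grin1 stood at 313 and 278 CPM against 226 and 215 CPM and just missed the threshold (-0.42 ± 0.11, adjusted p = 0.0588). So did the mature subunit Grin2a, at 667 and 615 CPM against 479 and 478 CPM (adjusted p = 0.061). Grin2d stood at 10.1 and 8.20 CPM against 4.14 and 6.98 CPM and did not pass. Grin2c was the 1 subunit with a positive value, at 24.9 and 32.2 CPM against 33.2 and 37.3 CPM, and did not pass either. Thus 5 of the 6 subunits had both mutant libraries below both wild-type libraries, against 23.1% of all tested genes.

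Of 19 AMPA receptor subunits and auxiliary proteins 4 fell, all of them proteins that bind the receptor: Shisa7, the olfactomedin Olfm2, and the TARP-type auxiliary subunits Cacng8 and Cacng3. Shisa7 went from 103 and 77.5 CPM to 57.8 and 59.1 CPM (-0.62 ± 0.12), and Cacng8 from 65.7 and 60.4 CPM to 47.7 and 43.9 CPM. The median of the list was -0.29. Kainate and delta receptor subunits were negative in 9 of 9 tested genes with a median of -0.30, and 1 fell, the kainate subunit Grik5 (200.01 and 152 against 127 and 119 CPM, adjusted p = 0.0499). All 7 tested metabotropic glutamate receptors were negative, with a median of -0.19, and 1 fell, the presynaptic receptor Grm2 (95.1 and 104 against 62.8 and 74.3 CPM).

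In the postsynaptic density, 3 of 34 scaffolds and GTPase regulators fell, with a list median of -0.14. Iqsec2, an exchange factor for ARF proteins, went from 197 and 147 CPM to 113 and 118 CPM (-0.57 ± 0.13), and Arhgap32, a GTPase activating protein, from 1082 and 1068 CPM to 789.8 and 758 CPM.

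Proteins that join the presynaptic to the postsynaptic membrane gave 8 of 37 lower genes, a median of -0.26, and 33 negative values. Nlgn2, the neuroligin of inhibitory synapses, fell from 343 and 269 CPM to 189 and 198 CPM (-0.66 ± 0.12, adjusted p = 0.0178). Its presynaptic partners Nrxn2 and Nrxn3 fell from 512 and 441 to 326 and 327 CPM and from 412 and 379.8 to 301 and 262 CPM. The receptor phosphatase Ptprf went from 244 and 219 CPM to 156 and 173 CPM. The other 4 were Slitrk1, Lrfn1, Lrfn3 and Cadm3. No tested member of this list had both mutant libraries above both wild-type libraries, and 28 had both below (23.1% of all tested genes each way).

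On the presynaptic side, the active zone scaffolds Bsn and Pclo, the largest proteins of the release site, fell from 1647 and 1175 to 858 and 794 CPM and from 989 and 892 to 687 and 521 CPM. They were 2 of 21 in their list, whose median was -0.14. Of 24 vesicle proteins and transporters 2 fell, Syn1, a synapsin that tethers the reserve pool (562 and 456 against 333 and 283 CPM, -0.72 ± 0.13), and the endophilin Sh3gl2 (382 and 334 against 266 and 217 CPM). That list had a median of -0.28. The SNARE and synaptotagmin list had 1 of 31 lower, Syt17 (100.1 and 85.6 against 61.3 and 68.5 CPM), and a median of -0.08, which became -0.23 when the first Shank3 vehicle library was left out and -0.17 when wild type 2 was. The vesicle median was -0.17 without Shank3 vehicle library 2 and -0.13 with the oligodendrocyte level in the model.

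Voltage-gated calcium channels held the largest share of genes that fell among lists with over 10 tested members: 7 of 15, all 15 values negative, with a median of -0.34. The 7 are pore-forming subunits. Cacna1b, the N-type pore of presynaptic terminals, fell from 324 and 246 CPM to 177 and 188 CPM (-0.64 ± 0.12). The R-type pore Cacna1e went from 809.5 and 618 CPM to 497 and 435 CPM, the L-type pore Cacna1d from 71.0 and 59.4 CPM to 44.3 and 45.8 CPM, and the P/Q-type pore Cacna1a from 240.1 and 204 CPM to 157 and 163 CPM. The other 3, named because they complete the count, were Cacna1c, Cacna1g and Cacna1i. This count was sensitive to processing: 0 fell without wild-type library 1 or without either Shank3 vehicle library, 1 fell with length and GC offsets, and 0 fell with the oligodendrocyte level in the model. The median stayed between -0.45 and -0.27 under all alternatives.

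Other channels followed with smaller shares. Of 49 potassium and HCN channels 4 fell, with a median of -0.23: the delayed rectifier Kcnb2 (110.3 and 99.1 against 70.8 and 77.3 CPM), the M-current subunit Kcnq3 (319 and 307 against 226 and 228 CPM), the silent subunit Kcng1 and the EAG channel Kcnh1. Of 12 sodium channel genes 1 fell, Scn8a, which encodes Nav1.6 of the axon initial segment (711 and 611 against 479 and 446 CPM). The sodium channel median was -0.13, and -0.23 or -0.05 with the first or second Shank3 vehicle library left out. On the inhibitory side 3 of 20 fell, with a median of -0.19, -0.07 without wild-type library 2 and -0.05 with the oligodendrocyte level in the model. These were the GABA-A subunits Gabrb1 (299.8 and 290.4 against 219 and 196 CPM) and Gabrg3, and the chloride exporter Slc12a5 (966 and 856 against 629 and 684 CPM).

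Genes that clear or release calcium did not all move one way. The plasma membrane pump Atp2b4 fell from 781 and 597 CPM to 435 and 385 CPM (-0.75 ± 0.13), and the sodium-calcium exchanger Slc8a2 from 618 and 499 CPM to 380.4 and 352 CPM. Itpr2, an IP3 receptor known from astrocytes, rose from 15.7 and 20.2 CPM to 26.4 and 33.5 CPM (0.73 ± 0.16). Of 34 calcium and cAMP dependent kinases, cyclases and phosphodiesterases 33 were negative and the median was -0.16.

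**Figure D3:**
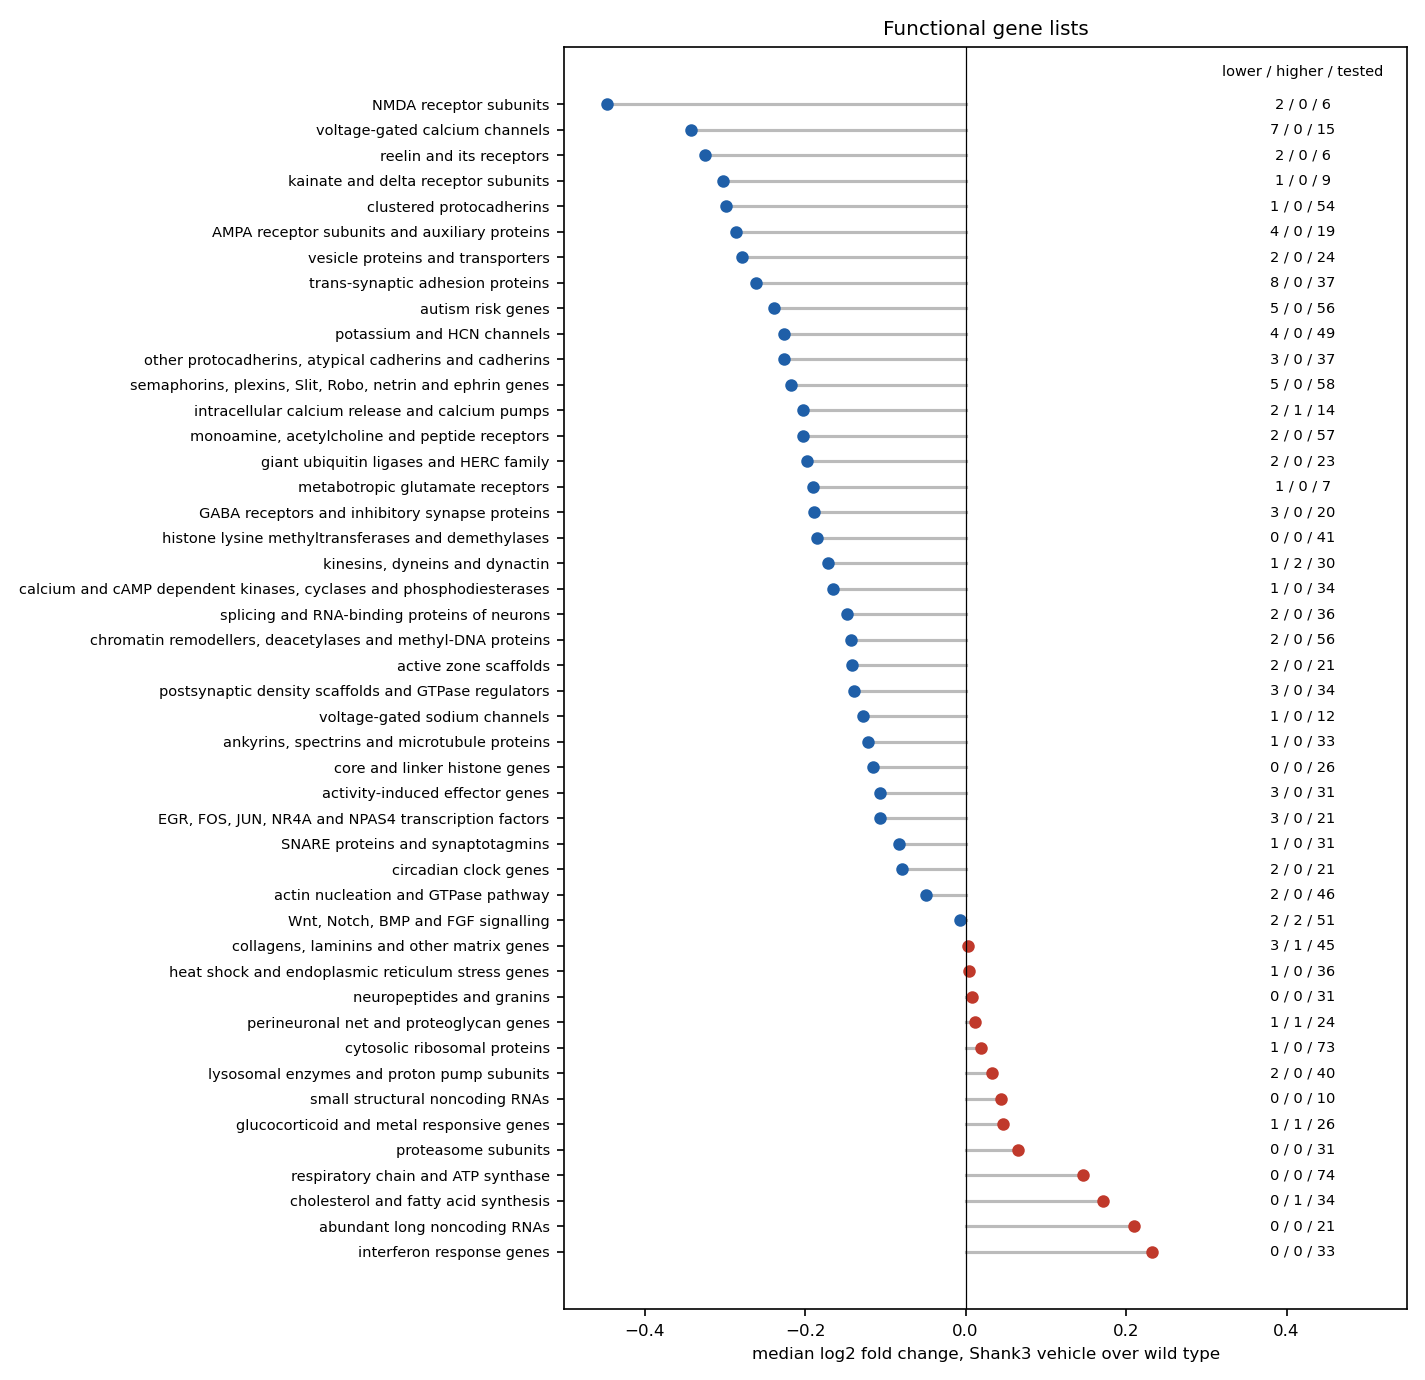
Each point is the median log2 fold change, Shank3 vehicle over wild type, of the tested members of 1 of the 46 functional gene lists; the numbers at the right count the members that fell, rose and were tested. Lists of receptors, channels and adhesion proteins lie at the top with medians down to -0.45, and interferon, long noncoding RNA, lipid synthesis and respiratory chain lists at the bottom with positive medians.

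Lists of cell surface and guidance genes gave 11 lower genes of 155 (7.1%) and a median of -0.26. None rose by edgeR's test; before adjustment 2 were higher at p under 0.05, and limma-voom and DESeq2 passed 0 as higher. Without wild-type library 1 or Shank3 vehicle library 1 edgeR's test passed 0 of them as lower, and 2 without Shank3 vehicle library 2. Clustered protocadherins, which give neurons their surface identity, had a median of -0.30 over 54 genes with 46 negative, but only Pcdhgc5 fell (181 and 171 against 128 and 113 CPM). Some of these genes share 3′ exons within a cluster, so reads can be split between those that do. Of 58 semaphorin, plexin, Slit, Robo, netrin and ephrin genes 5 fell: the semaphorin receptors Plxna1 (258 and 182 against 129.9 and 141 CPM) and Nrp2 (45.0 and 34.9 against 26.7 and 25.1 CPM), the ligands Slit2 (107 and 110.1 against 64.6 and 81.3 CPM) and Slit3 (81.5 and 65.4 against 47.9 and 50.3 CPM), and Robo1, a receptor for Slit proteins. Reln, the secreted protein that positions cortical neurons, stood at 192 and 194 CPM in wild type and 122 and 125 CPM in Shank3 vehicle (-0.64 ± 0.10, adjusted p = 0.0111), with nearly equal values inside each group. The lipoprotein receptor Lrp1 fell from 1081 and 942 CPM to 692 and 677 CPM. Of 24 perineuronal net and proteoglycan genes 1 fell and 1 rose, 12 were negative and 12 positive, and the median was 0.01. Tnr, which links the net's chains, fell from 357 and 306 CPM to 214 and 227 CPM. The gene that rose was Hapln2, described with the oligodendrocyte markers below.

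Transcription factors that neurons switch on with activity were the next group. They answer calcium entry through CREB, which binds the cAMP response element, and through serum response factor. Because Egr2, Egr4 and Fosb fell together, the 250 bases before their start sites are shown (RefSeq, GRCm38.p6, 5′ to 3′ on the strand of the gene), with each copy of the core of the cAMP response element (TGACG, or CGTCA on the other strand) in capitals. They lie at chr10:67535249-67535498 (plus strand), chr6:85513590-85513839 (minus strand) and chr7:19310046-19310295 (minus strand).
Egr2: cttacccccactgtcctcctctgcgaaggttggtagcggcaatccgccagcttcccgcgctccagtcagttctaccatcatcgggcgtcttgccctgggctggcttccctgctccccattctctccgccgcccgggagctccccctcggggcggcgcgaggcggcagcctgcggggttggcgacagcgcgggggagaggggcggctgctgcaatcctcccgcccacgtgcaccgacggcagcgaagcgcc
Egr4: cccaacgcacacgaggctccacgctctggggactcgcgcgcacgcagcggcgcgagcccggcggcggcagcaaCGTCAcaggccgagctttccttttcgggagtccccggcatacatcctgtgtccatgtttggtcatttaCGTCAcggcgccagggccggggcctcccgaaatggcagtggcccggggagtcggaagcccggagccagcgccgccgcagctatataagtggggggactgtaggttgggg
Fosb: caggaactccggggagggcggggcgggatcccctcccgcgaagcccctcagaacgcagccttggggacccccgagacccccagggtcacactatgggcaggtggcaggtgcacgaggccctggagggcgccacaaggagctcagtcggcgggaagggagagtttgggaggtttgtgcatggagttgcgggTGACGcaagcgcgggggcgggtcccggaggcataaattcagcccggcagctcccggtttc
Egr4 holds 2 cores, 177 and 109 bases before the start, Fosb holds 1 at 60 bases, and the Egr2 window holds none. Of the 17 list members with a RefSeq promoter entry, 11 held the core in such a window, against 26% of 11992 promoters of tested genes and 17.8% of all 32851 in the table. Of these 11 members only Egr4 and Fosb fell, and the others, Fos, Junb, Npas4 and Nr4a1 among them, did not pass. The full element TGACGTCA, of which the core is a part, the EGR site GCGTGGGCG and the CArG box of serum response factor, searched on both strands, were found in 0 of the 17 windows, and in 2.69%, 1.03% and 1.2% of the promoters of tested genes. These matches are letters in a window and not measured binding.

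Egr4 fell from 31.1 and 27.1 CPM to 14.4 and 15.8 CPM (-0.94 ± 0.15, adjusted p = 0.0117), and the GSK-LSD1 libraries stood at 24.6 and 31.7 CPM. Egr2 fell from 5.61 and 7.91 CPM to 2.85 and 3.13 CPM (-1.20 ± 0.25), with 12.6 and 18.5 CPM in the GSK-LSD1 libraries. Fosb, a partner of Jun proteins in AP-1, fell from 14.2 and 11.5 CPM to 6.99 and 6.17 CPM (-0.96 ± 0.20). In all 3 genes both mutant libraries lay below both wild-type libraries. Egr1 stood at 140.2 and 157 CPM against 114 and 82.0 CPM and Egr3 at 97.7 and 87.1 CPM against 63.8 and 66.6 CPM, and neither passed (adjusted p = 0.347 and 0.0812). Fos stood at 16.6 and 26.1 CPM against 15.1 and 11.9 CPM and did not pass. Npas4, which is specific to neuronal activity, overlapped between the groups at 9.51 and 26.6 CPM and 5.47 and 10.9 CPM. Nr4a1 did so too, at 29.7 and 62.0 CPM and 41.3 and 33.7 CPM. The wild-type libraries alone spread over more than the difference between groups for these last 2. In all, 3 of 21 tested members fell, 0 rose by edgeR's test (0 higher at p under 0.05 before adjustment or by either other tool), and the median was -0.11. The median became -0.25 when wild type 1 was left out, -0.16 when wild type 2 was, -0.47 when the first Shank3 vehicle library was, and -0.52 with the oligodendrocyte level in the model. No member fell without wild-type library 1 or Shank3 vehicle library 1.

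Among 31 effector genes that such factors induce, 3 fell. Nptx2, a pentraxin that gathers AMPA receptors, went from 66.1 and 63.1 CPM to 48.7 and 38.2 CPM, and the cyclooxygenase Ptgs2 from 19.6 and 27.3 CPM to 15.4 and 13.8 CPM (-0.70 ± 0.16). The clock gene Per1 went from 80.8 and 69.1 CPM to 52.1 and 51.8 CPM, and the clock repressor Nr1d1 (Rev-erb alpha) from 65.5 and 67.8 CPM to 41.0 and 49.1 CPM. The median of the effector list was -0.11 and 25 of 31 members were negative. It became 0.00 when wild type 2 was left out, -0.05 when the second Shank3 vehicle library was, -0.18 when either first library was, and down to -0.25 with the oligodendrocyte level in the model.

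Of 56 autism risk genes 5 fell (8.93%, against 0.994% of all tested genes), 49 were negative and the median was -0.24. None was higher by edgeR's test, before or after adjustment, or by limma-voom or DESeq2. The list was long, with a median exonic length of 12.2 kb. With length and GC offsets 2 fell and the median was -0.15, and with scaling by library size alone 2 fell. With 1 vehicle library left out the median ran from -0.28 to -0.21. Reln, Grin2b and Cacna1c, named above, were among the 5 that fell, as was Asxl3, a partner of the deubiquitinase BAP1 (36.8 and 34.4 against 24.3 and 22.6 CPM, -0.60 ± 0.12). Of 56 chromatin remodellers, deacetylases and methyl-DNA proteins 2 fell. They were Arid1a, the BAF complex subunit (159 and 129 against 92.2 and 91.4 CPM, -0.65 ± 0.11), and the coactivator Ncoa6 (90.0 and 74.8 against 54.7 and 47.6 CPM). Among 41 histone lysine methyltransferases and demethylases edgeR's test passed 0 genes, with 13 lower at p under 0.05 before adjustment, and limma-voom passed 0 and DESeq2 1. The median was -0.19 and 35 were negative. The nearest to the threshold was Kmt2a, at 199.7 and 146 CPM against 109.5 and 112 CPM (-0.64 ± 0.15, adjusted p = 0.0657).

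Motor and cytoskeleton genes went both ways. Kif5a, a neuronal kinesin of axonal transport, rose from 866 and 1063 CPM to 1441 and 1582 CPM (0.65 ± 0.12), the most abundant gene that rose. The kinesin Kif13a rose from 22.0 and 23.5 CPM to 33.0 and 33.2 CPM, while the dynein heavy chain Dync1h1 fell from 2463 and 2190.5 CPM to 1747 and 1496 CPM. Wasf1 and Cyfip2, parts of the WAVE complex that starts actin branches, fell from 206 and 195 to 144 and 119.7 CPM and from 1527 and 1383 to 1083 and 1012 CPM. Arpc1b, a subunit of the Arp2/3 complex on which WAVE acts, rose from 4.31 and 5.42 CPM to 10.5 and 10.4 CPM (1.08 ± 0.21).

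Markers of glia and vessels made up part of the genes that rose. In 6 lists of glial and vascular markers with 108 tested genes, 8 rose (7.41%, against 0.278% of all tested genes) and 1 fell, and the median was 0.37. For 74 of the 108 both mutant libraries lay above both wild-type libraries, against 23.1% of all tested genes. The oligodendrocyte level is the mean over the 26 mature oligodendrocyte markers, which are among these 108. With it in the model their own median was bound to drop, to 0.02. For all 108 edgeR's test then passed 0 as higher and the median was 0.25. None rose without wild-type library 1 or Shank3 vehicle library 2, 1 rose without Shank3 vehicle library 1, and 34 and 35 rose without GSK-LSD1 library 1 or 2. Excitatory neuron and cortical layer markers gave 2 of 40 lower, Wfs1 among them, with a median of -0.20 (-0.37 or -0.11 with the first or second Shank3 vehicle library left out). The mutant libraries differed by layer. Deep layer markers summed to 974 and 886 CPM in wild type and 990 and 698.5 CPM in Shank3 vehicle, and upper layer markers to 963 and 962 against 700 and 915 CPM. Without the first or second Shank3 vehicle library the deep layer median was -0.52 or 0.24 and the upper layer median 0.03 or -0.30. Summed over 13 excitatory neuron markers the libraries held 7364 and 7125 CPM in wild type and 6288 and 5945 CPM in Shank3 vehicle. The part of these marker levels in the falls of synaptic genes was not tested. With the mature oligodendrocyte marker level as a term in the model, 78 genes fell and 6 rose, of which 43 and 2 were among those above. This level, in mean log2 CPM, was 5.06 and 4.81 in wild type and 5.875 and 5.874 in Shank3 vehicle. In the GSK-LSD1 libraries it was 4.74 and 5.96. Among the vehicle libraries the level followed the groups, so the term cannot be separated from the difference between them. Its slope rests largely on the GSK-LSD1 pair.

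Astrocytes, which clear glutamate and couple through gap junctions, gave 3 of 18 markers higher. The connexin Gja1 rose from 140.2 and 163 CPM to 219 and 241 CPM (0.60 ± 0.11, adjusted p = 0.0222). The water channel Aqp4 rose from 101 and 104 CPM to 143 and 149 CPM, and the calcium-binding protein S100b from 26.6 and 40.2 CPM to 57.4 and 64.7 CPM (0.86 ± 0.16). The list median was 0.45 and 16 of 18 had both mutant libraries above both wild-type libraries, against 23.1% of all tested genes. Summed, the 18 markers held 4869 and 6058 CPM in wild type and 6712 and 7106 CPM in Shank3 vehicle. Wild type 1 was the lowest library, and without it the median was 0.28 with no marker passing. Other leaders of known astrocyte expression rose as well: the endothelin receptor Ednrb from 32.6 and 43.9 CPM to 60.4 and 61.9 CPM, and the secreted matrix protein Sparc from 71.7 and 88.7 CPM to 121 and 137 CPM (0.68 ± 0.12).

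Mature oligodendrocyte markers had a median of 0.91, and for 26 of 26 both mutant libraries lay above both wild-type libraries, against 23.1% of all tested genes. Myelin basic protein, Mbp, stood at 763 and 760.5 CPM in wild type and 1877 and 1836 CPM in Shank3 vehicle. Mobp, another myelin protein gene, stood at 227 and 249 CPM against 724 and 666 CPM. Both groups were tight, more than 2-fold apart, and yet neither gene passed (adjusted p = 0.408 and 0.373). The GSK-LSD1 libraries, which share the estimate of spread, held 717 and 1763 CPM of Mbp and 267 and 687 CPM of Mobp. In a model of the 4 vehicle libraries alone 22 of 26 markers rose, against 198 (1.1%) of the 17951 genes tested there, of which 326 (1.82%) fell. Mbp then gave 1.29 ± 0.10 (edgeR adjusted p = 2.06e-06) and Mobp 1.55 ± 0.10 (adjusted p = 3.84e-07). When 1 vehicle library was left out of the model of all 6 libraries, 1 library was left in its group and the median ran from 0.71 to 1.08. With either GSK-LSD1 library left out of that model the median was 0.90. Summed over the list, wild type held 3143 and 2826 CPM and Shank3 vehicle 6859 and 6892 CPM.

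With all 6 libraries in the model, Hapln2, a link protein at the nodes of myelinated axons, was the 1 marker of mature oligodendrocytes that rose, from 2.19 and 1.59 CPM to 5.01 and 5.94 CPM (1.56 ± 0.33). Sirt2, a deacetylase abundant in myelin, rose from 52.8 and 59.7 CPM to 82.8 and 98.5 CPM. Among precursor markers Gpr17, a receptor of cells on the way to myelination, rose from 32.6 and 39.1 CPM to 57.7 and 80.7 CPM (0.94 ± 0.16), while Tnr, which that list also holds, fell. The precursor list had a median of 0.34 over 14 genes. Prr5l, a binding partner of mTORC2, rose from 5.41 and 5.02 CPM to 11.95 and 11.4 CPM (1.17 ± 0.22), and Evi2a from 4.65 and 6.76 CPM to 12.8 and 11.6 CPM.

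Microglia and vessel markers each had a single member that rose in its list. The integrin Itgam rose from 2.12 and 2.82 CPM to 5.52 and 6.21 CPM (1.22 ± 0.27), 1 of 21 microglia markers with a median of 0.22. Dock2, a Rac activator of immune cells, rose from 1.57 and 2.02 CPM to 5.10 and 4.76 CPM. Itm2a was the 1 of 19 endothelial markers that rose (34.2 and 37.0 against 49.7 and 49.9 CPM), with a median of 0.23. The endothelial median became 0.08 when wild type 1 was left out and 0.41 when wild type 2 was; leaving out the first or second Shank3 vehicle library gave 0.36 or 0.13. The microglia median became 0.15 when wild type 1 was left out and 0.36 when wild type 2 was. Rgs5, the pericyte regulator of G protein signalling, rose from 82.5 and 93.8 CPM to 122 and 143 CPM (0.58 ± 0.11), while the pericyte list as a whole had a median of 0.00. Apln, the peptide apelin, rose from 20.8 and 24.9 CPM to 37.4 and 37.7 CPM.

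**Figure D4:**
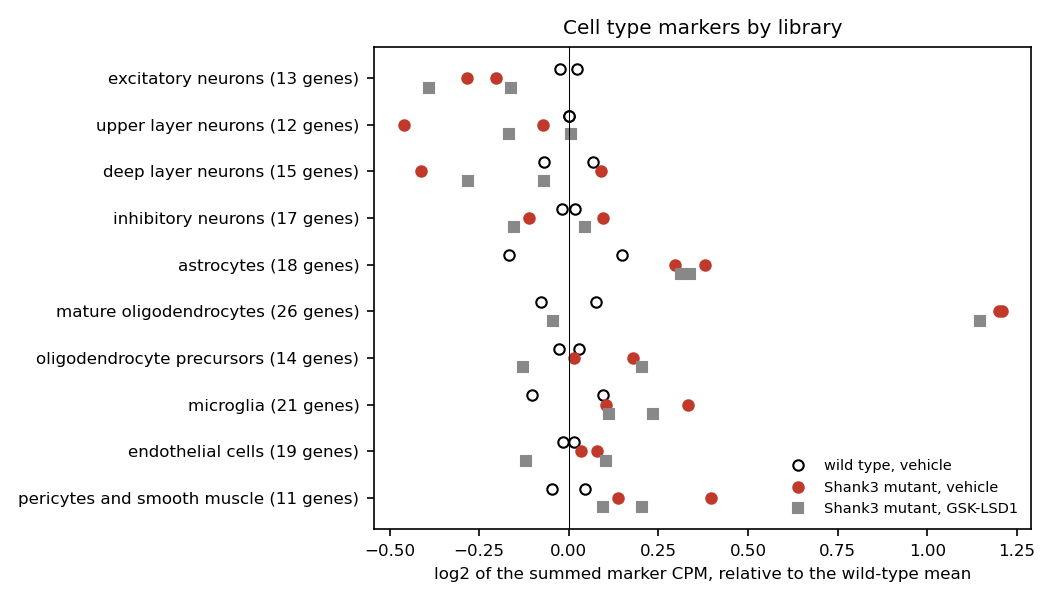
Each symbol is 1 library, plotted as the log2 of its summed marker CPM relative to the wild-type mean, for 10 cell type lists; open circles are wild type, red circles Shank3 vehicle and grey squares GSK-LSD1. Mature oligodendrocyte markers put both Shank3 vehicle libraries more than 1 log2 unit above wild type and split the GSK-LSD1 libraries.

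Markers of tissue outside the cortex were measured as well. Choroid plexus genes summed to 5.07 and 7.44 CPM in wild type and 6.39 and 12.3 CPM in Shank3 vehicle, and edgeR's test passed 0 of 6 (1 at p under 0.05 before adjustment, 0 by limma-voom and DESeq2). Thalamus markers summed to 183 and 196 CPM against 206 and 252 CPM, with both mutant libraries above wild type. Their median was 0.34 and 8 of 12 were positive. Both mutant libraries lay above both wild-type libraries for 7 of 12 and below them for 1 (23.1% of all tested genes each way). Without Shank3 vehicle library 2 the median was 0.10. Of these edgeR's test passed 0 of 12, with 2 higher at p under 0.05 before adjustment, and limma-voom passed 0 and DESeq2 1. Fibroblast markers summed to 403 and 228 CPM against 372 and 538 CPM, with the groups overlapping.

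Further neuronal lists each had 2 members that fell, 3.51%, 5.56% and 8.7% of those tested in the order below, against 0.994% of all tested genes. Among 57 monoamine, acetylcholine and peptide receptors these were the somatostatin receptor Sstr2 (40.8 and 36.2 against 25.8 and 25.7 CPM) and the muscarinic receptor Chrm1 (263 and 209 against 168 and 166 CPM), with a median of -0.20. Among 36 neuronal splicing and RNA-binding genes they were Celf5 (166 and 123 against 90.6 and 86.1 CPM) and Ago2, the slicing Argonaute (179 and 130.4 against 105 and 105 CPM). Of 23 giant ubiquitin ligases Ubr4 (633 and 487 against 398 and 378 CPM) and Hectd4 (1081 and 858 against 722 and 623 CPM) fell, with a median of -0.20. With length and GC offsets 1, 1 and 0 members of these lists fell, in the same order, and with the oligodendrocyte level in the model 0, 2 and 0. As lower, limma-voom passed 1, 1 and 0 and DESeq2 3, 6 and 9. The ligases were long, with a median of 15.4 kb.

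Signalling and matrix lists were divided. The growth factor Fgf1 rose from 32.0 and 43.2 CPM to 58.1 and 63.0 CPM and the BMP target Id4 from 47.7 and 55.8 CPM to 72.8 and 72.9 CPM, while the BMP receptor Bmpr2 fell from 452 and 420.2 CPM to 337 and 298 CPM. In the matrix list Sparc rose and 3 of 45 genes fell, Fras1 and Pxdn among them. Aldh1a1, a retinaldehyde dehydrogenase, rose from 10.5 and 10.5 CPM to 18.0 and 21.5 CPM (0.91 ± 0.17), and Rgcc, a regulator of the cell cycle, from 6.71 and 8.31 CPM to 18.8 and 12.9 CPM (1.06 ± 0.20). The last 2 leaders that rose were Asrgl1, an asparaginase-like enzyme (102 and 135 against 176 and 181 CPM), and Adi1, of the methionine salvage pathway (16.7 and 14.6 against 27.2 and 23.4 CPM).

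Of 74 genes of the respiratory chain and ATP synthase, which make most ATP of neurons, edgeR's test passed 0, with 11 higher at p under 0.05 before adjustment, and limma-voom passed 0 and DESeq2 3. The median was 0.15 and 67 were positive. It dropped to 0.05 when the first Shank3 vehicle library was left out and to 0.08 when wild type 1 was. Cytochrome c, Cycs, was nearest, at 11.2 and 13.5 CPM against 20.1 and 18.9 CPM (0.65 ± 0.16, adjusted p = 0.0507). In lipid synthesis 1 of 34 genes rose, the stearoyl-CoA desaturase Scd1, from 130.0 and 151 CPM to 210.0 and 225 CPM (0.63 ± 0.11, adjusted p = 0.0178). Tsc22d3, the glucocorticoid-induced GILZ, rose from 64.4 and 73.5 CPM to 98.8 and 100.4 CPM. Of the 26 tested glucocorticoid and metal responsive genes 1 rose and 1 fell, and the median was 0.05. The acid alpha-glucosidase Gaa fell from 427 and 368 CPM to 252 and 287 CPM, with 444 and 389 CPM in the GSK-LSD1 libraries. Of 40 lysosomal enzymes and proton pump subunits 2 fell and 22 were positive, with a median of 0.03. Of 33 interferon response genes, whose median was 0.23, edgeR's test passed 0 (4 higher at p under 0.05 before adjustment, 0 by limma-voom and DESeq2). Xaf1, at 0.684 and 0.650 CPM against 1.47 and 1.81 CPM, was among the nearest. Of 31 neuropeptide and granin genes none passed edgeR's test (3 higher and 2 lower at p under 0.05 before adjustment, 0 by limma-voom, 1 lower by DESeq2), Npy being at 24.2 and 29.8 CPM against 38.8 and 37.3 CPM (adjusted p = 0.0988).

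Genes with near-identical copies were among those with the smallest p in both directions. Rps2, a protein of the small ribosomal subunit on chromosome 17, was counted at 42.8 and 37.4 CPM in wild type and 21.0 and 21.4 CPM in Shank3 vehicle (-0.92 ± 0.14). Its processed copy Rps2-ps10 on chromosome 18, named after its values were seen, held 1.10 and 1.16 CPM in wild type and 22.2 and 16.8 CPM in Shank3 vehicle. The transcripts match at 99.36% of 934 aligned bases, with 6 mismatches (GENCODE M21). Summed over Rps2 and its listed copies, the libraries held 45.2 and 39.3 CPM in wild type and 44.1 and 39.5 CPM in Shank3 vehicle, so the sum overlapped between the groups although both genes differed. In the GSK-LSD1 libraries Rps2 stood at 36.2 and 46.4 CPM, Rps2-ps10 at 0.594 and 0.818 CPM and the sum at 37.6 and 48.2 CPM. Whether reads were divided differently between gene and copy was not tested, and both calls are uncertain for that reason. No other of the 73 tested ribosomal protein genes passed.

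Atp6v0c, the proteolipid subunit of the vacuolar proton pump, also on chromosome 17, was counted at 113 and 113 CPM in wild type and 60.8 and 61.4 CPM in Shank3 vehicle (-0.89 ± 0.12, adjusted p = 0.00518). Its copy Atp6v0c-ps2 matches at 99.78% of 465 aligned bases and held more reads than the gene, 194 and 204 CPM against 192 and 171 CPM. Here the sum over gene and copies was lower in both mutant libraries, at 253 and 232 CPM against 308 and 317 CPM. In the GSK-LSD1 libraries Atp6v0c stood at 119.7 and 91.2 CPM and the sum at 319 and 247 CPM.

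**Figure D5:**
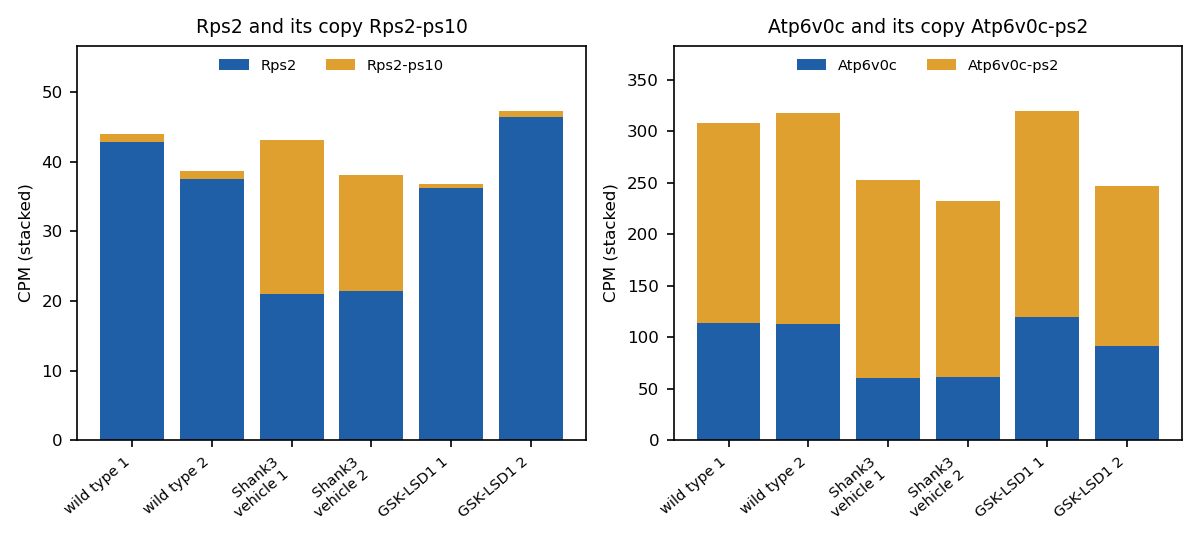
Stacked bars give the CPM of a gene (blue) and of its near-identical copy (orange) in each of the 6 libraries. For Rps2 the blue part shrinks and the orange part grows in the 2 Shank3 vehicle libraries while the height of the bars overlaps with wild type; for Atp6v0c the blue part shrinks with no rise of the orange part.

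Genes that passed were spread over the chromosomes. Within 10 Mb of Shank3, 3 of 225 tested genes passed (1.33%, against 1.27% of all), all 3 lower: Cacna1i, Scube1 and Gramd4, at 9.10, 5.78 and 3.36 Mb. Before adjustment edgeR's test put 44 of the 225 at p under 0.05, against 2628 of all 18705. Across chromosomes 1 to 19 and X the share that passed ran from 0.52% on chromosome 13 to 2.14% on chromosome 18.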

How the data were processed

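Bulk RNA of mouse prefrontal cortex was measured in 6 libraries. The authors deposited unnormalized counts by gene symbol, with a file for each library. Per the submitters' processing notes they came from cutadapt, TopHat2, SAMtools and featureCounts, with edgeR also named, on mm10 (GRCm38). Their versions, the annotation and the strand setting were not stated, so counts of antisense or overlapping genes cannot be separated. Depth was 14133834 to 28646960 counted reads, and 3 counts equal 0.105 to 0.212 CPM of the unscaled total (counting error only). Mitochondrial genes held 0 reads, and 26 symbols turned into dates were not named. Libraries of a group differed beyond sampling noise (9.97 and 10.1 chi-square units per degree of freedom).

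With R 4.3.3 and edgeR 4.0.16, genes were filtered by filterByExpr and scaled by TMM. A robust quasi-likelihood model of 3 groups over all 6 libraries (3 residual degrees of freedom) gave two-sided tests with Benjamini-Hochberg adjustment at 0.05. Standard errors are the size of the log2 fold change over the square root of F. Alternatives used limma 3.58.1, DESeq2 1.42.0, other scalings, filters and models, and each library left out. GENCODE M21 coordinates matched 98.7% of tested symbols.

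Named genes were Shank3, Kdm1a, the first 20 each way by adjusted p that passed with a mean of at least 1 CPM and no overlap (no pseudogenes, predicted genes or dates), up to 4 passing members of each list (2 of the nearest where none passed), and all members of a few short lists. The comparison, the 67 lists and these rules were chosen with earlier results of these data known, and list counts are descriptions. A few genes that these rules name are not reported here.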

Additional observations from a re-analysis of the deposited data

How the results depend on the processing

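All 238 genes that passed kept their direction under every alternative, but the numbers that passed moved widely. Against 186 lower and 52 higher genes, upper quartile scaling gave 96 lower, library size alone 20 lower and 15 higher, and no filter on low counts 518 and 289. DESeq2 gave 452 and 138, limma-voom 101 lower, and a model that was not robust 10 and 1. With only the 4 vehicle libraries 326 fell and 198 rose, with length and GC offsets 84 fell, with the oligodendrocyte level as a covariate 78 fell and 6 rose, and at a threshold of 0.10 400 and 152 did. Leaving out 1 library gave 3 to 421 lower and 2 to 235 higher genes. The cause was not tested, except that these runs hold fewer libraries. RLE scaling, a minimum of 1 CPM and leaving out the 20 most abundant genes stayed within 1.5 times.

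With the replicate block 155 genes fell and 78 rose, of which 139 and 43 were among the calls without it. The labels share only a number: deviations of same-numbered libraries correlated at -0.0481 across genes, so no pairing was assumed.

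Of 2215 comparisons for named genes that passed, 1483 stayed on their side of the threshold, 732 did not pass and 0 reversed. Genes that had not passed changed sign for 3 genes. Sox10 was at -0.015 with the covariate, of which it is itself a part. With a library left out, Shank3 ran from -0.10 to 0.15 and Nr4a1 from -0.73 to 0.33, and over all alternatives from -0.10 to 0.20 and from -0.76 to 0.33. With 2 libraries per group and 3 residual degrees of freedom, small differences were not detectable.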
